A study of Mus musculus with 4 samples.

Results

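Tip cell and sprouting genes of tumour endothelium were followed in endothelial cells sorted from mouse tumours. The set held 7 genes, Esm1, Cxcr4, Kcne3, Pdgfb, Cd34, Egfl7 and Mcam, which were chosen by name as markers of sprouting vessels. All 7 were among the 55367 gene names of the count table, and all 7 had enough reads to be tested. The cells came from KPC tumours, grown from a mouse pancreatic cancer line that was injected under the skin of C57BL/6 mice. Once a tumour could be felt, mice received a rat IgG as control or anti-CD93 by intraperitoneal injection, and 48 hours later the CD31-positive, CD45-negative cells were sorted. CD93 is a receptor on the surface of endothelial cells. Each group had 2 libraries of total RNA. The labels do not say whether the libraries of a group came from separate mice, or whether mice were pooled, so the tests measure only the spread between these libraries.

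A new vessel grows from an existing one behind a leading tip cell, which extends filopodia towards VEGF, while stalk cells behind it divide and form the lumen. VEGF acts through its receptor KDR on the tip cell, and the tip cell holds its neighbours in the stalk state through DLL4 and Notch. Tip cells of growing vessels and tumours are known for high Esm1, Cxcr4, Kcne3, Pdgfb and Cd34. Egfl7 and Mcam are broader endothelial genes that are raised in growing and tumour vessels.

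The libraries held 9364294 to 17813993 reads assigned to genes. Control IgG replicate 2 stood apart: it had the fewest assigned reads but the most genes with reads (27718 against 23796 to 25430), and mitochondrial ribosomal RNA took 6.20% of its reads against 11.0% to 11.8% in the others. The SD of its log2 difference from the mean of the other 3 libraries, over all genes tested, was 0.786, against 0.452 to 0.495 for each of the others. For the 7 genes, the value without it is given below where it moved by more than 1.5 times. The sort marker Pecam1, which encodes CD31, was at 1661 to 1872 CPM in the 4 libraries, and Ptprc, which encodes CD45, at 2.33 to 5.08 CPM. CPM are reads per 1e6, with library totals scaled by TMM, and a log2 fold change above 0 means a higher level with anti-CD93.

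No tip cell gene passed the test between anti-CD93 and control IgG. With edgeR's quasi-likelihood test, 0 of the 7 genes had an adjusted p under 0.05, as had 0 of all 16945 genes tested (0%), of which 761 had an unadjusted p under 0.05. Esm1 was the 1 gene of the 7 for which both anti-CD93 libraries lay above both control libraries, while 20.1% of all genes tested did so. Egfl7, Mcam and Cd34 were the 3 for which both lay below, against 19.7% of all genes tested. For Cxcr4, Kcne3 and Pdgfb the groups overlapped. The median log2 fold change of the 7 was -0.077, beside -0.0092 over all genes tested. With so few genes, neither count can be read as a shift of the set. Unadjusted p values under 0.05 by edgeR were found for Esm1, upward, and Egfl7, downward, whereas 1.99% of all genes tested had one upward and 2.5% downward. Under the settings named here 0 of the 7 passed as well, while the share of all genes tested that did was 0.144% with no count filter, 0.015% with DESeq2, 0.0826% with a term for the replicate number, 0.0767% without control IgG replicate 2 and 0.0059% without anti-CD93 replicate 2. A fit without 1 control library leaves the other to stand alone, with its spread taken from the anti-CD93 libraries. Without control IgG replicate 1, the control that is left is the library that stood apart, and 26.8% of all genes tested passed (14.1% upward and 12.8% downward), so a pass in that fit is not read as a result about a gene. In the SE and interval of each gene below, the fit shares information on spread across all genes.

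**Figure D1:**
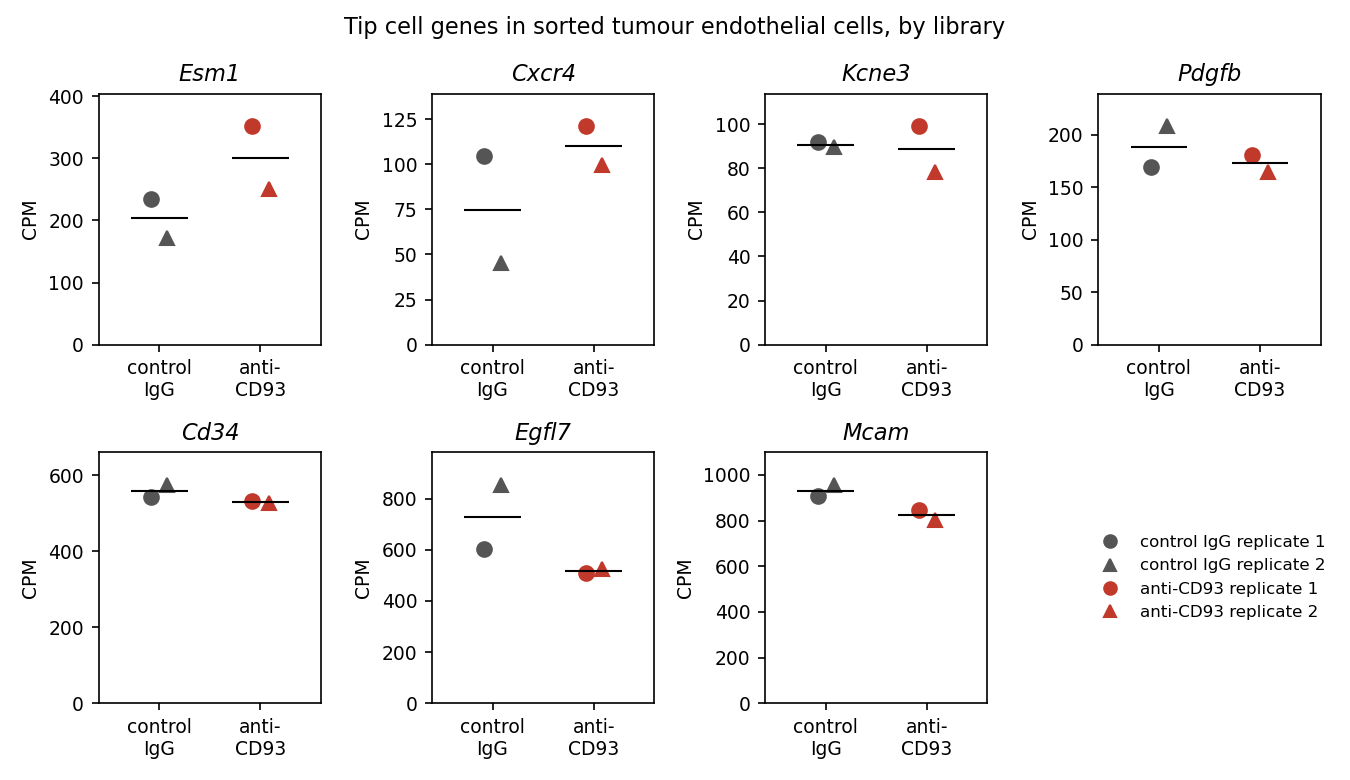
CPM of each of the 7 genes (y axis, from 0) in the 2 control IgG libraries (grey) and the 2 anti-CD93 libraries (red), with circles for replicate 1, triangles for replicate 2 and a line at each group mean. Esm1 was higher in both anti-CD93 libraries than in both controls, Egfl7 was lower, and in Cxcr4 control IgG replicate 2 (45.1 CPM) lay below the other 3 libraries.

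Of the genes for secreted proteins, Esm1 (chromosome 13, 113209659 to 113218098, plus strand, GRCm38) encodes endocan, a proteoglycan that VEGF induces in tip cells. Its level was 235 and 172 CPM in the control libraries, replicate 1 before 2 here and below, and 352 and 251 CPM in those of anti-CD93. Anti-CD93 replicate 1 was the highest and control IgG replicate 2 the lowest, and the groups did not overlap, although anti-CD93 replicate 2 exceeded control IgG replicate 1 by 1.07-fold only. The mean of the controls was 204 ± 44.5 CPM, and that of the anti-CD93 libraries was 301 ± 71.4 CPM (SD, n = 2 each). The log2 fold change was 0.56 (SE 0.23, 95% interval 0.027 to 1.10), a 1.48-fold higher level, with an adjusted p of 0.812 by edgeR. The libraries of a group differed by almost as much, by 1.37-fold within control IgG and by 1.40-fold within anti-CD93. Leaving out control IgG replicate 2 gave 0.36 (adjusted p = 0.772 by edgeR), and leaving out anti-CD93 replicate 1 gave 0.31 (adjusted p = 1.0 by edgeR). Relative to the summed level of 12 endothelial marker genes, Esm1 was at 24.2 and 14.3 per 1000 in the control libraries and 36.8 and 25.1 per 1000 in the anti-CD93 libraries, so both anti-CD93 libraries still lay higher, the closest pair by little. In bulk RNA, fewer cells of a type and less RNA per cell cannot be told apart, here and in the values that follow.

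Kdr, which encodes the VEGF receptor, was at 1230 and 1312 CPM with control IgG, and at 1290 and 1296 CPM after anti-CD93 (difference 0.025 in log2, SE 0.16). Vegfa, which encodes its ligand, was at 163 and 230 CPM with control IgG, and at 271 and 262 CPM after anti-CD93, without overlap (difference 0.44 in log2, SE 0.21, adjusted p = 0.812 by edgeR). With control IgG replicate 2 left out, the Vegfa value was 0.71 and passed (adjusted p = 0.0244 by edgeR). With control IgG replicate 1 left out it was 0.21 and did not pass (adjusted p = 0.133 by edgeR), so the size of the Vegfa difference rested on which control was used. Itgal, whose integrin binds endocan on leukocytes, was low, at 0.816 to 2.25 CPM.

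Pdgfb (chromosome 15, 79995874 to 80014977, minus strand) encodes a growth factor by which tip cells recruit pericytes. It was at 169 and 208 CPM in the control libraries and 181 and 164 CPM in the anti-CD93 libraries, or 188 ± 27.6 and 173 ± 11.7 CPM (SD, n = 2 each). The groups overlapped, with control IgG replicate 2 the highest, and the log2 fold change was -0.12 (SE 0.18, 95% interval -0.55 to 0.30, adjusted p = 0.881 by edgeR). It was 0.032 without control IgG replicate 2 and 0.15 when trends with length and GC content were taken out of each library, so its sign was not settled. Its receptor gene Pdgfrb, a pericyte gene, was at 59.5 and 82.0 CPM with control IgG, and 76.0 and 53.5 CPM after anti-CD93. The ratio of Pdgfb to Pdgfrb was 2.84 and 2.54 in the control libraries and 2.38 and 3.07 in the anti-CD93 libraries, and overlapped too. Among the related genes, Pdgfa was at 13.7 to 17.3 CPM in 3 libraries and 35.8 CPM in control IgG replicate 2. Pdgfd was at 45.8 to 57.4 CPM and Pdgfra, a fibroblast receptor gene, at 11.1 to 14.6 CPM.

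Egfl7 (chromosome 2, 26580014 to 26593120, plus strand) encodes a secreted EGF-like protein that endothelial cells deposit along vessels. Its level was 603 and 855 CPM in the control libraries and 509 and 524 CPM in those of anti-CD93. The anti-CD93 libraries were close to each other and below both controls, and the spread was within the control group, where replicate 2 was 1.42-fold higher than replicate 1. The log2 fold change was -0.50 (SE 0.21, 95% interval -0.97 to -0.023, adjusted p = 0.812 by edgeR). It was -0.22 when control IgG replicate 2 was left out (adjusted p = 0.621 by edgeR). With the other control library left out it was -0.73 and passed (adjusted p = 6.25e-04 by edgeR). In that fit, in which 26.8% of all genes tested passed, 2 of the 7 tip cell genes did, Egfl7 downward and Cxcr4 upward. Relative to the endothelial marker sum, Egfl7 was at 61.9 and 71.2 per 1000 in the control libraries and 53.2 and 52.5 per 1000 in the anti-CD93 libraries. Both anti-CD93 libraries were thus lower on this scale as well, and the control libraries were nearer to each other.

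Within Egfl7 lies the microRNA gene Mir126a, whose product miR-126 is an endothelial microRNA that supports VEGF signalling. The mature sequence is shown because the host gene was measured while the microRNA could not be, with its seed, bases 2 to 8, in capitals (RefSeq, GRCm38.p6, chr2:26591402-26591423, plus strand):
mmu-miR-126a-3p: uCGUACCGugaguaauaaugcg
Mir126a and its antisense copy Mir126b were listed at 0 reads in all 4 libraries. The table also gives all 73 bases of Mir126a to exons of Egfl7, and the recorded counting command has no strand option and none that assigns reads to overlapping genes. A read from the hairpin could therefore be assigned to neither gene, and the 0 says nothing about miR-126. Of the 3581 exonic bases of Egfl7, 264 (7.37%) are also exonic in Gm20532 on the same strand and 64 (1.79%) in Agpat2 on the other. For Kcne3, Cd34 and Mcam, 0.506%, 2.03% and 0.507% of exonic bases overlapped another gene, each on the opposite strand, and Esm1, Cxcr4 and Pdgfb had no such overlap. Itgav and Itgb3, which encode the integrin that Egfl7 binds, were at 203 and 120 against 214 and 228 CPM and at 265 and 285 against 292 and 281 CPM, control IgG before anti-CD93. The related gene Egfl8 was at 1.07 to 2.76 CPM.

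Of the genes for surface receptors, Cxcr4 (chromosome 1, 128588199 to 128592293, minus strand) encodes the receptor for the chemokine CXCL12 and is raised in tip cells by VEGF. It had 105 and 45.1 CPM in the control libraries, from 1282 and 421 reads, and 121 and 99.7 CPM in those of anti-CD93, from 2142 and 1372 reads. Control IgG replicate 2 was the low library, and the other control lay between the anti-CD93 libraries. The controls differed by 2.32-fold, more than the 1.47-fold between the groups (log2 fold change 0.56, SE 0.35, 95% interval -0.25 to 1.36, adjusted p = 0.812 by edgeR). Leaving out control IgG replicate 2 gave 0.078, and leaving out control IgG replicate 1 gave 1.29. Of the 7 genes, Cxcr4 departed furthest in control IgG replicate 2, by -1.26 on the log2 scale from the mean of the other libraries, followed by Esm1 at -0.67 and Egfl7 at 0.65.

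The ligand gene Cxcl12 was highest in the library where Cxcr4 was lowest, at 126 and 213 CPM with control IgG, and 149 and 151 CPM after anti-CD93 (difference -0.17 in log2, SE 0.25). Ackr3, which encodes a scavenging receptor for the same chemokine, was at 88.3 and 69.7 against 82.8 and 71.3 CPM. The ratio of Cxcr4 to Ackr3 was 1.18 and 0.647 in the control libraries and 1.46 and 1.40 in the anti-CD93 libraries. It did not overlap, although Cxcr4 alone did. Of all single genes tested, 20.1% were higher in both anti-CD93 libraries, and no such share was computed for ratios. Cxcr4 is also a leukocyte gene. The 13 macrophage and myeloid markers summed to 46.6 and 68.5 CPM with control IgG, and 80.6 and 69.7 CPM after anti-CD93. Their sum was thus higher in both anti-CD93 libraries, the closest pair by little. Of the 11 tested, 4 lay above both controls in both anti-CD93 libraries (36.4%, against 20.1% of all genes tested). Another 2 lay below (18.2%, against 19.7% of all genes tested). The 9 lymphocyte markers summed to between 1.74 and 4.71 CPM. The part of either marker group in the Cxcr4 values was not tested.

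Mcam (chromosome 9, 44134469 to 44142727, plus strand) encodes CD146, an adhesion protein of endothelial cells and pericytes. It was at 906 and 957 CPM in the control libraries and 846 and 802 CPM in the anti-CD93 libraries, or 932 ± 36.3 and 824 ± 31.1 CPM (SD, n = 2 each). Both anti-CD93 libraries were lower, by a log2 fold change of -0.18 (SE 0.16, 95% interval -0.55 to 0.20, adjusted p = 0.826 by edgeR). Relative to the endothelial marker sum the groups overlapped, at 93.1 and 79.7 per 1000 with control IgG and 88.4 and 80.4 per 1000 with anti-CD93. With the length and GC trend removed the log2 fold change was -0.038. Lama4, which encodes the laminin chain that MCAM binds, was at 1054 and 1006 against 1065 and 975 CPM.

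The relatives of Mcam differed more between the groups, in opposite directions, though neither passed the test. Alcam, which encodes the adhesion protein CD166, was at 42.6 and 39.1 CPM with control IgG, and 79.5 and 66.9 CPM after anti-CD93 (difference 0.84 in log2, SE 0.19, 95% interval 0.40 to 1.29, adjusted p = 0.812 by edgeR). The groups did not overlap, and leaving out 1 library at a time gave 0.72 to 0.96. Alcam passed in the fit that left out control IgG replicate 1 (0.91, adjusted p = 0.00177 by edgeR), where 26.8% of all genes tested did, and not in the fit that left out replicate 2 (0.78, adjusted p = 0.120 by edgeR). ALCAM is also found on epithelial cells, and of 10 epithelial markers 3 (Cdh1, Epcam and Muc1) lay higher in both anti-CD93 libraries, against 20.1% of all genes tested, and 1 (Sfn) lower. The other 6 overlapped, and the median of the 10 was 0.033 in log2. Cdh1 was at 216 and 210 against 351 and 290 CPM. These markers were named after their values were seen. Their part in the Alcam difference was not tested. Bcam, which encodes a laminin receptor, was at 65.4 and 95.7 CPM with control IgG, and 54.1 and 46.9 CPM after anti-CD93 (difference -0.67 in log2, SE 0.23). The Bcam value was -0.37 without control IgG replicate 2, and -0.92 without replicate 1.

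Cd34 (chromosome 1, 194938819 to 194961279, plus strand) encodes a sialomucin of the endothelial surface that lines tip cell filopodia. Its level was the steadiest of the 7, at 541 and 575 CPM with control IgG, and 531 and 527 CPM after anti-CD93. Both anti-CD93 libraries lay below both controls, but by little, with a log2 fold change of -0.077 (SE 0.16, 95% interval -0.45 to 0.30, adjusted p = 0.922 by edgeR). It was -0.31 with the length and GC trend removed and -0.034 without control IgG replicate 2. Relative to the endothelial marker sum the groups overlapped, at 55.7 and 47.9 against 55.5 and 52.9 per 1000. Its relative Podxl, another sialomucin, was at 844 and 903 against 716 and 721 CPM, again lower in both anti-CD93 libraries (log2 fold change -0.28, SE 0.16, adjusted p = 0.812 by edgeR). Podxl passed in the fit without control IgG replicate 1 (-0.33, adjusted p = 0.0241 by edgeR), as did 26.8% of all genes tested. The other family gene, Podxl2, was at 0.436 to 1.61 CPM.

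Kcne3 (chromosome 7, 100176502 to 100184869, plus strand), the 1 ion channel gene of the set, encodes a single-span subunit that modifies potassium channels and marks tip cells. It was at 91.9 and 89.5 CPM in the control libraries and 99.0 and 78.3 CPM in the anti-CD93 libraries. Here the anti-CD93 libraries were the highest and the lowest, with both controls between them. The log2 fold change was -0.033 (SE 0.19, 95% interval -0.47 to 0.40, adjusted p = 0.973 by edgeR), and its sign turned with no count filter (0.015) and without anti-CD93 replicate 2 (0.13). It was -0.051 without control IgG replicate 2 and -0.20 without anti-CD93 replicate 1. Kcnq1, which encodes a channel that KCNE3 can join, was at 118 and 115 CPM with control IgG, and 72.9 and 96.3 CPM after anti-CD93, lower in both (log2 fold change -0.46, SE 0.20, adjusted p = 0.812 by edgeR). The Kcnq1 value was -0.27 without anti-CD93 replicate 1, and also -0.27 with the length and GC trend removed. Of the other subunit genes, Kcne4 was at 4.07 to 8.65 CPM, Kcne1 had 0 reads and Kcne2 had 2 reads in 1 control library. In all, 24 ligand, receptor and family genes of the 7 were listed, of which 19 were tested and 0 passed. Of these, 8 had a log2 fold change above 0 and 11 below, with a median of -0.037, and the groups did not overlap in 4 upward and 4 downward (21.1% each way, against 20.1% and 19.7% of all genes tested). These shares are near the background.

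**Figure D2:**
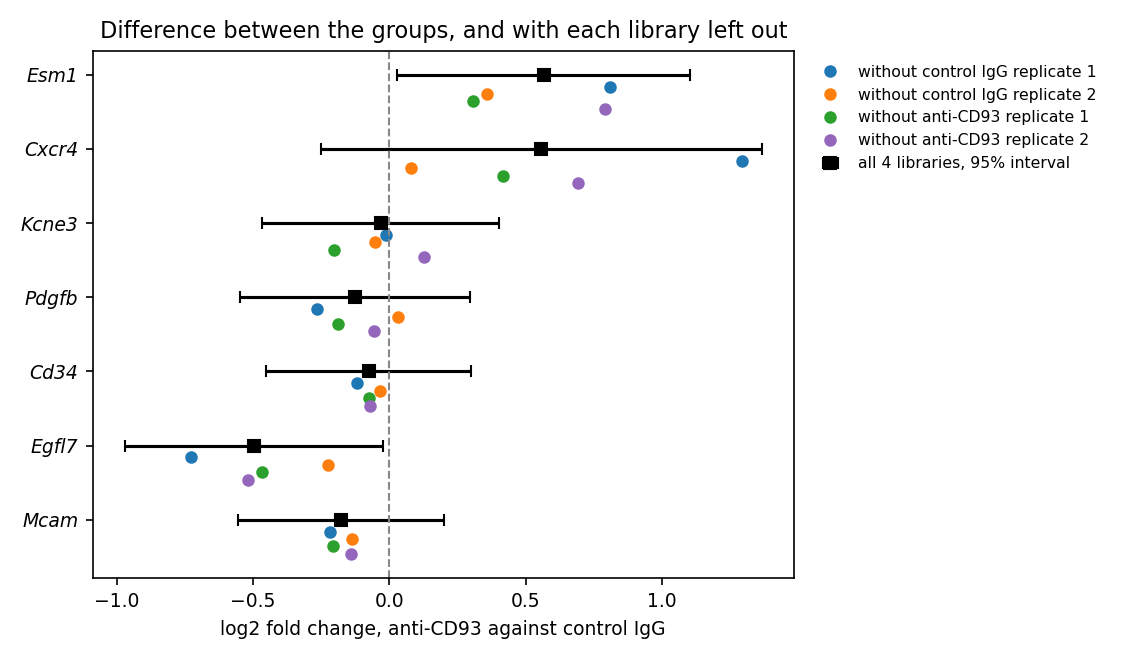
Log2 fold change of each gene, anti-CD93 against control IgG (x axis), from all 4 libraries with its 95% interval (black squares and bars) and with each library left out (coloured points). The Cxcr4 points run from 0.078 to 1.29 and the Egfl7 points from -0.73 to -0.22 depending on which control library was left out, while the Mcam and Cd34 points stay close together.

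The sequence just before the start of Esm1, Cxcr4 and Egfl7 is shown because these 3 genes had the largest differences of the 7, 2 upward and 1 downward. RefSeq windows (GRCm38.p6) were found for 6 of the 7 genes, 9 windows in all. Each line gives the 250 bases before a start, 5′ to 3′ on the gene's strand, for Esm1 at chr13:113209409-113209658 (plus), Cxcr4 at chr1:128592300-128592549 (minus) and 1 of 3 Egfl7 starts at chr2:26583615-26583864 (plus). Capitals mark the hypoxia-response core (ACGTG or GCGTG) and the ETS core (AGGAA or CGGAA), searched on both strands, so that TTCCT is AGGAA on the other strand. ETS factors are the family that drives many endothelial genes.
Esm1: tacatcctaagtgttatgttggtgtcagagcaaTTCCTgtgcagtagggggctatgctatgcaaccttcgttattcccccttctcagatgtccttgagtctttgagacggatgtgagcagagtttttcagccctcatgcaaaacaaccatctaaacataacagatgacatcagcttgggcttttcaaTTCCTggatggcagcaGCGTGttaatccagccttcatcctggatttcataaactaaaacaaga
Cxcr4: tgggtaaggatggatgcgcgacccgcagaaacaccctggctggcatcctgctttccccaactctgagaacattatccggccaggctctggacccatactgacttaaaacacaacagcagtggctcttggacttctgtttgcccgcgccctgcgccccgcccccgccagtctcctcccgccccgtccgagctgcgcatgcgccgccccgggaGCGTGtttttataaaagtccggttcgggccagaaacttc
Egfl7: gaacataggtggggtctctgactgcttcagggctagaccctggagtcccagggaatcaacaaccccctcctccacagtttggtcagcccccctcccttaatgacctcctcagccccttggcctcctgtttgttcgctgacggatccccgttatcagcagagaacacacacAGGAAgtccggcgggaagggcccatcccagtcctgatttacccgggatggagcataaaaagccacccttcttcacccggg
A GCGTG lay 47 to 43 bases before the start of Esm1 and 39 to 35 bases before that of Cxcr4, and none lay in the 3 Egfl7 windows, while 38.6% of all 32851 RefSeq windows of this length hold a hypoxia core. AGGAA was found 2 times in the Esm1 window and 1 time in the Egfl7 window shown, and no ETS core was found in that of Cxcr4, against 71.4% of all windows. The Egfl7 windows that are not shown held 4 and 0 ETS cores. Of the other genes, Cd34 had 3 AGGAA and no hypoxia core, Kcne3 had 1 ACGTG and 3 AGGAA over 2 windows, and Mcam had neither core. No match of one core overlapped one of the other. Matches of letters are no evidence of binding, and these windows cover a small part of what can control a gene.

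Levels of different genes were compared per kilobase of merged exons. On this scale the order of the means was Mcam at 262, Egfl7 at 174, Esm1 at 120, Cd34 at 74.6, Cxcr4 at 51.2, Kcne3 at 50.4 and Pdgfb at 43.4 CPM per kilobase. Mcam was above Egfl7 in all 4 libraries without overlap of their ranges, and the same held for Esm1 above Cd34 and for Cd34 above Cxcr4. Egfl7 and Esm1 overlapped, because in anti-CD93 replicate 1 Esm1 (168) stood above Egfl7 (142). Cxcr4 and Kcne3 overlapped, with Cxcr4 the lower in control IgG replicate 2 only, and Kcne3 and Pdgfb overlapped although Kcne3 was the higher in all 4 libraries. All 7 ranked high among the 12924 protein-coding genes tested, from rank 62 for Mcam to rank 702 for Pdgfb. The ratio of Esm1 to Egfl7 reads was 0.390 and 0.201 in the control libraries and 0.691 and 0.479 in the anti-CD93 libraries. This ratio could not overlap, because Esm1 lay higher and Egfl7 lower in both anti-CD93 libraries, so it is no separate result.

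**Figure D3:**
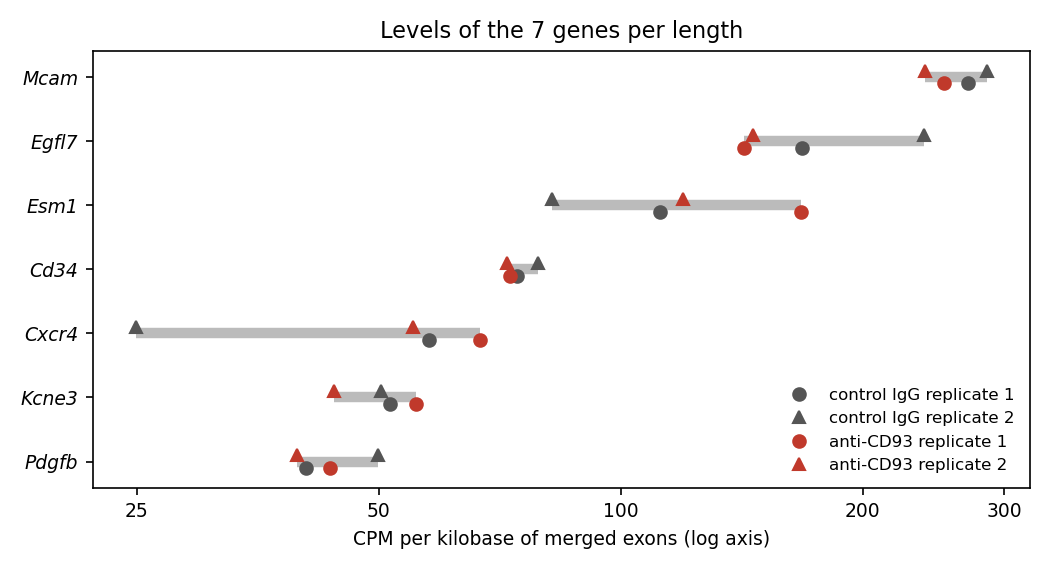
Level of each gene per kilobase of merged exons (x axis, log scale) in the 4 libraries, with grey bars from the lowest to the highest library. On this scale Cxcr4 has the widest range, 24.9 to 66.9 CPM per kilobase, and Cd34 the narrowest, 72.3 to 78.8 CPM per kilobase.

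The wider tip cell programme was read in 32 other genes, all tested, and 0 passed the test in either direction. Of these, 10 had a log2 fold change above 0 and 22 below, with a median of -0.15, while 50.9% of all genes tested lay below 0. Both anti-CD93 libraries were above both controls for 1 of the 32 (3.1%, against 20.1% of all genes tested) and below for 11 (34.4%, against 19.7% of all genes tested). The 1 above was Adm, which encodes the vasodilator adrenomedullin, at 49.4 and 48.0 against 56.1 and 62.6 CPM. Adm was picked after its values were seen. The 3 genes with the smallest p were all lower. Ramp3, which encodes a partner of the adrenomedullin receptor, was at 28.6 and 35.5 against 15.6 and 22.2 CPM (log2 fold change -0.76, SE 0.25). Plxnd1, which encodes a guidance receptor, was at 1772 and 2725 against 1601 and 1622 CPM (log2 fold change -0.48, SE 0.22). Plau, the gene of the protease urokinase, was at 100.2 and 96.8 against 82.1 and 68.8 CPM (log2 fold change -0.38, SE 0.18). Each had an adjusted p of 0.812 by edgeR. Plxnd1, like Egfl7, was highest in control IgG replicate 2: its value was -0.14 without that library, and -0.76 and past the threshold without replicate 1 (adjusted p = 4.82e-04 by edgeR). Ramp3 passed in the same fit (-0.92, adjusted p = 0.0141 by edgeR), as did 26.8% of all genes tested. The ratio of Egfl7 to Plxnd1 was 0.314 to 0.340 in all 4 libraries. No background share was computed for ratios. By the measure of likeness given below, 577 of 10240 genes lay within 0.1 of the Egfl7 pattern. Without control IgG replicate 2 the counts of the 32 genes were 14 above 0 and 18 below. With the length and GC trend removed, 14 of the 32 lay above 0 as well. Angpt2 and Apln, tip cell ligand genes, overlapped between the groups, at 261 and 275 against 267 and 294 CPM and at 100 and 159 against 104 and 119 CPM. Dll4, the Notch ligand gene of tip cells, lay lower in both anti-CD93 libraries, at 517 and 546 against 422 and 459 CPM (log2 fold change -0.27, SE 0.16); these last 3 genes were also named after their values were seen.

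Of 20 genes of stalk cells and quiescent vessels 19 were tested and 0 passed. Of these, 3 lay above 0 and 16 below (84.2%, against 50.9% of all genes tested), with a median of -0.21. Both anti-CD93 libraries were below both controls for 8 of the 19 (42.1%, against 19.7% of all genes tested). They were above both for 2 (10.5%, against 20.1% of all genes tested). The 20 genes summed to 7359 and 7991 CPM with control IgG, and 6721 and 7289 CPM after anti-CD93. The sum was thus highest in control IgG replicate 2, and the counts of this list were not made without that library. The 3 with the smallest p were Klf2, a flow-induced transcription factor gene, at 269 and 248 against 129 and 188 CPM, Cldn5, a tight junction gene, at 156 and 158 against 96.8 and 114 CPM, and Nos3, the endothelial nitric oxide synthase gene, at 187 and 237 against 124 and 155 CPM. Cldn5 (-0.59, adjusted p = 0.00501 by edgeR) and Nos3 (-0.77, adjusted p = 0.00391 by edgeR) passed only without control IgG replicate 1, where 26.8% of all genes tested did. Without anti-CD93 replicate 1 the Klf2 value was -0.45, against -0.71 in all 4 libraries. The 12 endothelial markers, which share 4 genes with the stalk and quiescent list and 2 with the tip cell list, were lower in the anti-CD93 libraries in 11 cases by the fitted value (91.7%, against 50.9% of all genes tested), with a median of -0.18. Their summed level was 9729 and 12010 CPM with control IgG, and 9563 and 9971 CPM after anti-CD93, so the high library was again control IgG replicate 2. A difference between the tip cell genes and these lists was not tested.

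**Figure D4:**
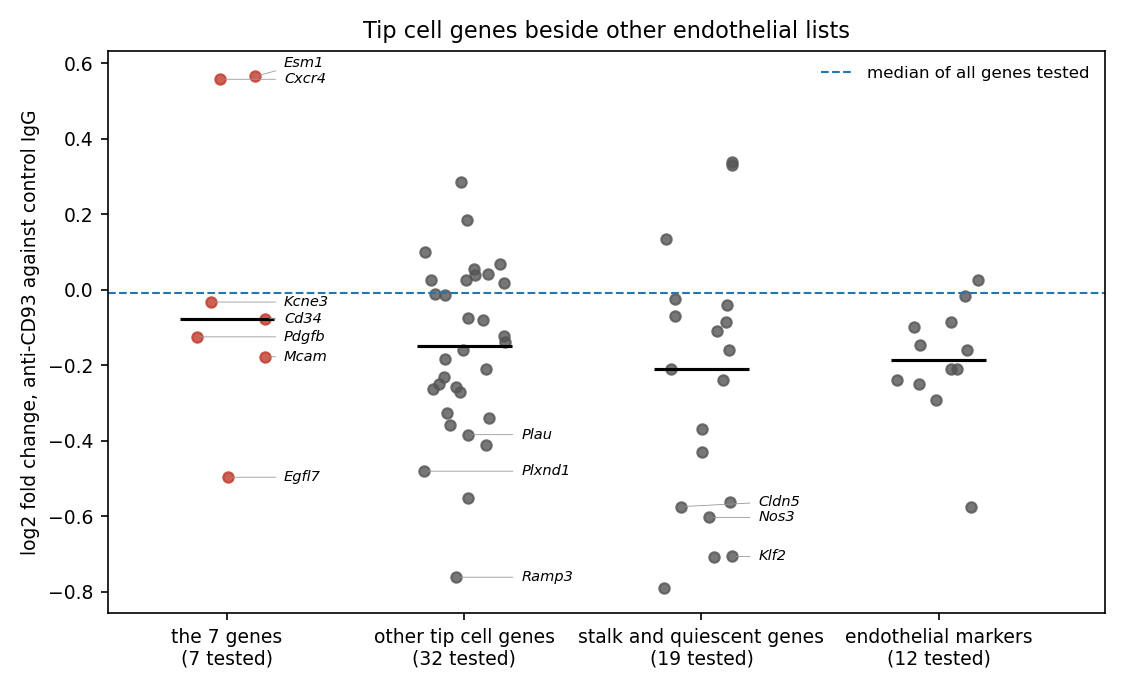
Log2 fold change, anti-CD93 against control IgG (y axis), of the 7 genes (red) and of 3 other lists (grey), with a black line at each median and a dashed line at the median of all genes tested (-0.0092). Esm1 and Cxcr4 (both 0.56) lie above every gene of the other 3 lists, and the list medians lie between -0.21 and -0.077.

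Other cell types that the sort could hold were read through marker lists. The 10 tumour epithelial markers summed to 1750 and 2532 CPM with control IgG, and 2467 and 2072 CPM after anti-CD93, led by Krt8 at 617 to 937 CPM. The 10 fibroblast markers summed to 2276 and 2958 against 1899 and 2366 CPM. Both anti-CD93 libraries were below both controls for 4 of these 10 (40%, against 19.7% of all genes tested). For 0 of them both were above (0%, against 20.1% of all genes tested). The 11 pericyte and smooth muscle markers, of interest for Mcam and Pdgfrb, summed to 1009 and 878 against 1054 and 873 CPM. Of these 11, Abcc9 was the highest at 400 to 510 CPM, Rgs5 was at 108 to 226 CPM, and Higd1b and Tagln were below 5 CPM. Both anti-CD93 libraries lay above both controls for 1 of the 11 (9.1%, against 20.1% of all genes tested). They lay below both for 4 (36.4%, against 19.7% of all genes tested). Platelet markers, of interest for Pdgfb, summed to 25.0 and 64.9 against 52.7 and 28.3 CPM over 6 genes, with Gp1bb at 0 reads. Erythroid markers summed to 9.71 and 20.8 against 29.2 and 19.7 CPM over 7 genes. Of the 6 erythroid markers tested, 2 lay above both controls in both anti-CD93 libraries (33.3%, against 20.1% of all genes tested). Below both lay 0 of the 6 (0%, against 19.7% of all genes tested). The part of these cells in the values of the 7 genes was not tested.

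The genes whose pattern over the 4 libraries was most like that of a tip cell gene were found by the root mean square difference of log2 CPM, each gene centred on its own mean, among 10240 genes with a mean of at least 5 CPM. For Esm1 these were B4galt6 (0.0188) and Plscr1 (0.0331), for Cxcr4 Mpv17 (0.0157) and Rbm4 (0.0343), and for Egfl7 Vps28 (0.0083) and Tab1 (0.0145). B4galt6, for example, was at 33.6 and 24.1 CPM with control IgG, and 49.7 and 34.6 CPM after anti-CD93. For Cd34 these were Fam76a and Asap1, for Mcam Ncoa3 and Ddx21, and for Kcne3 Ablim3 and Gimap4. With only 4 libraries a close match can be common. Within 0.1 lay 35 genes for Esm1 and 49 for Cxcr4, but 438 for Kcne3, 577 for Egfl7, 1274 for Mcam and 1657 for Cd34.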

How the data were processed

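RNA was measured in 4 libraries, 2 per group. Reads were counted with featureCounts 2.0.1 on GENCODE vM25 (GRCm38) by gene name, per the file headers, with no paired-end, strand or overlap option, although the kit named in the labels keeps strand; low counts were mostly even, as when mates are counted singly. The submitters' processing notes name STAR 2.7.5b and DESeq2 1.28.1. The authors deposited raw read counts, and a second table named as normalized held the same values (0 of 221468 cells differed). Gene lengths are those of the deposited table.

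The count table was filtered by filterByExpr at a minimum count of 10 (16945 genes), scaled by TMM and fitted with edgeR 4.0.16 in R 4.3.3, by the quasi-likelihood test with robust dispersion and group as the only term, adjusted by Benjamini-Hochberg over all genes tested. Calls were made at an adjusted p under 0.05. The method was tested on simulated data. The 9364294 to 17813993 assigned reads per library and 2 libraries per group limit the precision. An exact permutation test of 2 against 2 libraries cannot go below p = 0.333, so none is given. The members and lists were chosen with earlier results of these data known. Named were the 7 genes, detected partners, the 3 genes of each other list with the smallest p, and the 2 genes nearest to each member in pattern with a mean of at least 5 CPM, leaving out symbols starting Gm or ending Rik; the genes nearest to Pdgfb and 1 partner are not reported here. Alternatives were other scalings and filters, DESeq2 1.42.0, limma-voom (limma 3.58.1), no robust dispersion, a replicate block, each library left out, halved counts, protein-coding genes only, and removal of length and GC trends (GENCODE vM21 transcripts, 98.1% of tested genes).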

Additional observations from a re-analysis of the deposited data

How the results depend on the processing

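Under the 16 alternatives, Esm1, Cxcr4, Egfl7, Cd34 and Mcam kept their direction, and 0 of the 7 genes passed in any fit with all 4 libraries. Kcne3 turned to 0.015 with no count filter, and Pdgfb to 0.15 with length and GC trends removed. In the fits that left out 1 library, the log2 fold change ran from 0.078 to 1.29 for Cxcr4, from -0.73 to -0.22 for Egfl7, from -0.20 to 0.13 for Kcne3 and from -0.27 to 0.032 for Pdgfb, and the median of the 7 from -0.19, when anti-CD93 replicate 1 was left out, to -0.034. In the same fits 0 to 2 of the 7 genes and 0 to 4549 of all genes passed, the highest counts without control IgG replicate 1. Of all genes, 48 passed with no count filter and 5 with DESeq2. With the replicate block 14 passed, 0 of them among the 7; the labels do not say that a number marks a shared animal or day, and same-numbered libraries did not deviate together (r = -0.016 across genes, which are not independent replicates). With length and GC trends removed the value was 0.33 for Esm1, -0.26 for Egfl7, -0.31 for Cd34 and -0.038 for Mcam. The cause of these changes was not tested.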
